A study of Arabidopsis thaliana with 8 samples.

Results

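The glutathione S-transferase (GST) family was followed across the ATH1 arrays, which are Affymetrix oligonucleotide arrays of the Arabidopsis genome. Its members were the probe sets whose only annotated gene symbol begins with GSTU, GSTF, GSTZ, GSTT or GSTL, or with ATGST or DHAR, with *GSTU20* left out. This rule found 13 of 22746 probe sets, namely 10 of the tau class (GSTU), 2 of the phi class (GSTF) and 1 of the lambda class (GSTL). The tau members were *GSTU15* (AT1G59670), *GSTU16* (AT1G59700), *GSTU18* (AT1G10360), *GSTU21* (AT1G78360), *GSTU22* (AT1G78340), *GSTU23* (AT1G78320), *GSTU25* (AT1G17180), *GSTU26* (AT1G17190), *GSTU27* (AT3G43800) and *GSTU28* (AT1G53680). The phi members were *GSTF4* (AT1G02950) and *ATGSTF13* (AT3G62760), and the lambda member was *GSTL3* (AT5G02790). No probe set of the zeta, theta or DHAR (dehydroascorbate reductase) class was named by the annotation, which gave a single gene to 13513 probe sets. In the RefSeq gene list 50 genes meet the same symbol rule, so that most of the family was not analysed here.

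All samples were whole 9-day-old Col-0 seedlings from sterile liquid cultures that pool the seedlings of a flask. The -S seedlings had been raised on 150 µM sulfate and then kept for 48 h at 0 µM sulfate. The 30 min S and 3 h S seedlings were starved in the same way and harvested 30 min or 3 h after sulfate had been given back at 500 µM. FN (full nutrition) seedlings had 3 mM sulfate throughout. Each condition was measured on 1 array in each of 2 experiments (n = 2), which the study treats as biological replicates. The pre-culture on less sulfate and the lower nitrate and ammonium salts of the starvation medium went together with the sulfate supply, and their parts cannot be told apart in comparisons over FN. Resupply was given as potassium sulfate in opened flasks, and potassium chloride controls were not analysed here.

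GSTs join the thiol of glutathione, a sulfur-containing tripeptide, to reactive or foreign compounds, and the conjugates are moved into the vacuole by transporters of the ABCC type. The tau and phi classes are large in plants and known for the detoxification of herbicides and of products of oxidative stress. Lambda GSTs and DHARs instead use glutathione to reduce other molecules, DHARs to return oxidised ascorbate to ascorbate. Glutathione synthesis draws on the same cysteine that sulfate assimilation provides.

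Signals were MAS 5.0 intensities on a linear scale. The floor of an array, below which signals were taken as not detected, lay between 10.9 and 20.3. Of the 13 members, 11 were at or above the floor on all 8 arrays, and *GSTU21* and *GSTU15* were below it on every array. The FN array of experiment 1 stood apart from the rest, with correlations of 0.918 to 0.960 to the other arrays, against 0.943 to 0.993 among those. Printed differences of members over FN that lost or gained a call, changed sign or moved by over 1.5 times without an FN array are therefore also given without it. For genes that are no members, differences over FN are given with all arrays only. Of the organ markers with a single annotated gene, *EXPA7*, a root hair expansin, was at or above the floor on 8 arrays and *PAP85*, a seed storage protein, on 0. No shoot or pollen marker had such a probe set.

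**Figure D1:**
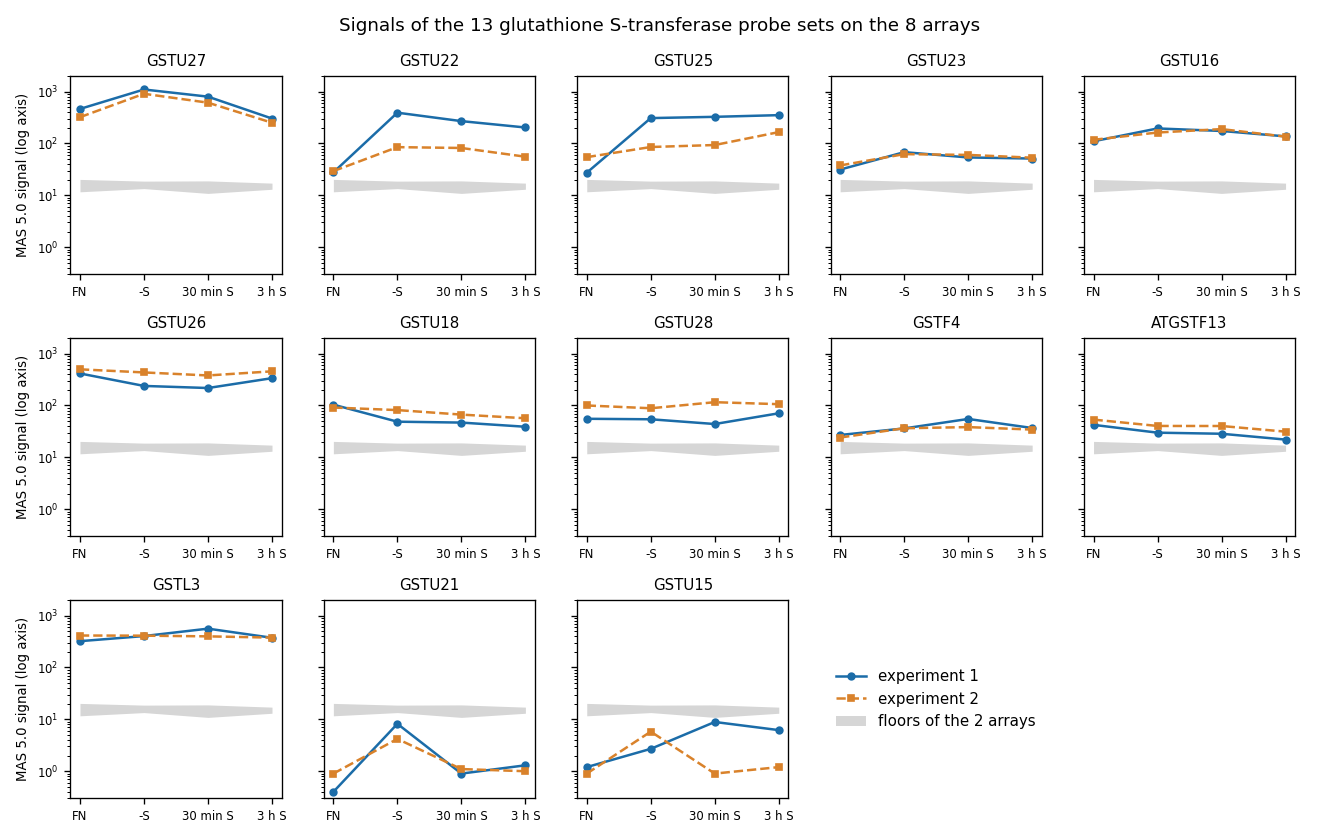
MAS 5.0 signals (log axis) of the 13 members in FN, -S, 30 min S and 3 h S, for experiment 1 (circles, solid) and experiment 2 (squares, dashed); the grey band spans the floors of the 2 arrays of a condition. *GSTU27* peaks in -S in both experiments, and *GSTU21* and *GSTU15* stay under the band throughout.

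*GSTU27*, a tau class enzyme, was the only member called by limma in any comparison. Its signals were 1099.2 and 908.7 in -S, against 463.6 and 321.6 in FN (experiments 1 and 2). Both starved samples lay above both controls, and the ratios within the experiments were 2.37 and 2.83. The fitted difference was 1.34 ± 0.14 (log2 of signal + 16, ± SE, n = 2 per condition, limma, adjusted p = 0.006). Without the FN array of experiment 1 it was 1.44 (adjusted p = 0.0017). The call was lost without either -S array (1.28 and 1.39) and without the replicate block (adjusted p = 0.075). It was also lost with FN and -S alone in the fit (adjusted p = 0.14) and in the methods' test (0.88). Fewer of all tested probe sets were called in each of these fits. The methods' test called 0 of them, and 0.88 was its smallest adjusted p in this comparison.

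After sulfate was given back, the *GSTU27* signals were 799.6 and 611.9 in 30 min S and 302.8 and 251.2 in 3 h S. The 3 h S signals were 0.275 and 0.276 of those in -S. Both 3 h S samples lay below both -S samples and also below both 30 min S samples. *GSTU27* fell by 1.80 on the log2 scale in 3 h S relative to -S (SE 0.14, adjusted p = 0.0036) and by 1.29 relative to 30 min S (SE 0.14, adjusted p = 0.016). These comparisons share the 3 h S arrays, and the comparisons over -S and over FN share the -S arrays. Leaving out either -S or either 3 h S array ended the call over -S, with differences of -1.73 to -1.86. Leaving out any -S, 30 min S or 3 h S array ended that over 30 min S (-1.23 to -1.36). A fit without the replicate block also ended the call over 30 min S (adjusted p = 0.13). Calls over all tested probe sets fell as well in each of these fits. The methods' test called neither (adjusted p = 0.96 and 0.9). It called 0 of all tested probe sets in both comparisons, and these were its smallest adjusted p-values there. The step from -S to 30 min S was -0.50 (SE 0.14, adjusted p = 0.999), with both 30 min S samples below both -S samples. At 3 h the signals were 0.653 and 0.781 of FN, a difference of -0.46 (SE 0.14, adjusted p = 0.174), which was -0.57 and called without the FN array of experiment 2 (adjusted p = 0.03).

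In -S over FN, 1 of the 11 tested members was thus called higher and 0 lower, where 1.42% of all 17138 tested probe sets were called either way. The members' differences ran from -0.51 to 2.19, with a median of 0.33 against 0.05 over all tested probe sets. Without the FN array of experiment 2, the only control left was the FN array of experiment 1, which stood apart. Differences were then larger in size than without the FN array of experiment 1 for every tested member but *GSTU27*. Without overlap between the 2 groups, 6 members were higher in -S and 2 lower, beside 24.5% and 18.9% of all tested probe sets. An unadjusted p under 0.05 was reached by 8 of 11 members, against 21.1% of all tested probe sets. The fold rule of the study was applied with the floors in place of its detection calls, so that the shares can differ from the study's. It asks for more than 2-fold the same way in both experiments, and no signal of the higher condition under its floor. By this rule, 2 of the 13 members were higher, *GSTU27* and *GSTU22*, against 0.989% of all probe sets. In the other direction 0 were lower, against 0.598%. In whole seedlings, fewer cells of a type and less RNA per cell cannot be told apart in any of these values.

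*GSTU22* had the largest difference among the tested members in -S over FN, but differed widely between experiments. Its signals were 392.5 and 85.0 in -S, against 27.7 and 29.3 in FN, which gave ratios of 14.2 and 2.90. The FN signal of experiment 1 lay close to the floor of that array (20.3). The groups did not overlap, and the fitted difference of 2.19 ± 0.44 was not called (adjusted p = 0.073). Leaving out the FN array of experiment 1 gave 1.3 (adjusted p = 0.009), and leaving out the other FN array gave 3.08 (3.2e-05), both called. Resupply samples had 269.8 and 81.9 after 30 min and 203.4 and 55.6 after 3 h. In each experiment the signals ran down from -S to 3 h S, and the 3 h S samples still lay above both FN samples. The difference of 3 h S over -S was -0.70 ± 0.44 (adjusted p = 0.560, 95% interval -1.74 to 0.35). With -S and 3 h S alone in the fit it was called (adjusted p = 0.039), as were 1067 of all tested probe sets, against 182. It was also called at -0.70 without either FN array, where calls over all tested probe sets rose as well.

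*GSTU25*, which with *GSTU24* is known to act on the explosive trinitrotoluene, had its highest signals in 3 h S. Its signals were 308.7 and 85.5 in -S, against 27.3 and 54.5 in FN, with ratios of 11.3 and 1.57. Here too the FN signal of experiment 1 lay close to the floor of that array (20.3). The difference of 1.72 ± 0.53 was not called (adjusted p = 0.158) and was 0.64 without the FN array of experiment 1 (0.25) and 2.79 without the other (9.5e-05). In 30 min S the signals were 326.5 and 93.4. In 3 h S they were 351.8 and 165.6. Over FN the 3 h S ratios were 12.9 and 3.04 and the difference 2.23 ± 0.53 (adjusted p = 0.125). Without the FN array of experiment 1 that difference was 1.15 (adjusted p = 0.047), and without the FN array of experiment 2 it was 3.30 (7.6e-05).

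The size of these ratios differed between experiments over the whole array as well. The SD of the log2 ratios of -S over FN over all tested probe sets was 0.68 in experiment 1 and 0.38 in experiment 2. The ratio was larger in size in experiment 1 for 8 of the 11 tested members and for 72.3% of all tested probe sets. *GSTU27* had the larger log2 ratio in experiment 2 (1.45, against 1.22 in experiment 1). What sets the experiments apart was not tested.

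**Figure D2:**
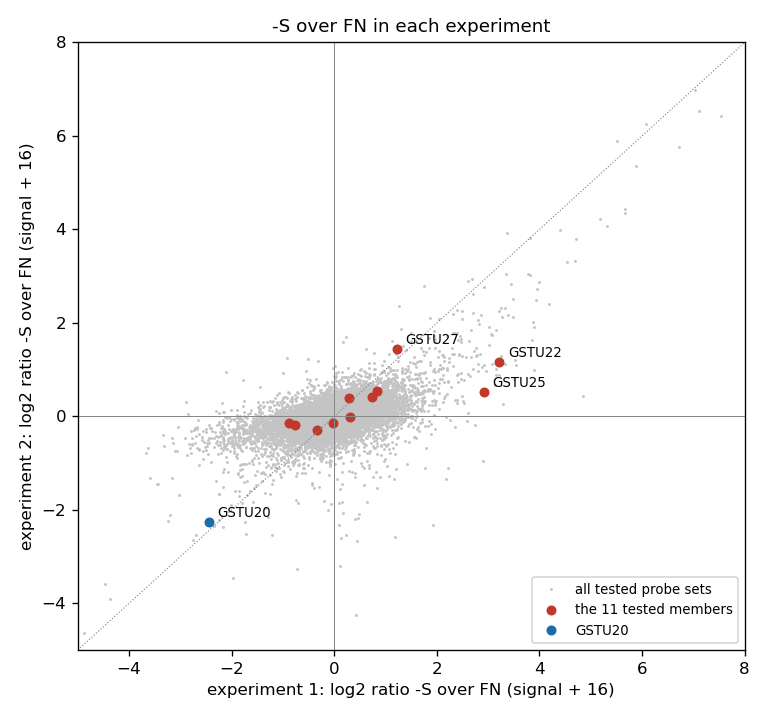
Log2 ratio of -S over FN (signal + 16) in experiment 1 (x axis) against experiment 2 (y axis) for all 17138 tested probe sets (grey), the 11 tested members (red) and *GSTU20* (blue); the dotted line marks equal ratios. *GSTU27* and *GSTU20* lie near the line, and *GSTU22* (3.22 and 1.16) and *GSTU25* (2.91 and 0.53) lie far below it.

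None of the remaining tau members was called. *GSTU23* had 68.0 and 62.3 in -S, against 31.4 and 37.7 in FN (difference 0.68 ± 0.14, adjusted p = 0.074). *GSTU16* had 195.0 and 162.8 in -S, against 110.3 and 117.7 in FN (0.58 ± 0.15, adjusted p = 0.121). Without the FN array of experiment 2 these differences were 0.76 (adjusted p = 0.0096) for *GSTU23* and 0.64 (0.025) for *GSTU16*. For both genes the -S samples lay above the FN samples in both experiments, with ratios between 1.38 and 2.17. In 30 min S the signals were 53.8 and 60.2 for *GSTU23* and 174.3 and 189.4 for *GSTU16*. By 3 h S they were 51.2 and 53.2 for *GSTU23* and 137.0 and 135.6 for *GSTU16*, below both -S samples and above both FN samples.

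The differences of *GSTU18* and *GSTU26* had the opposite sign. *GSTU18* had 48.7 and 81.5 in -S, against 103.7 and 91.3 in FN (difference -0.51 ± 0.20, adjusted p = 0.207), and it had 46.8 and 66.7 in 30 min S and 38.9 and 56.7 in 3 h S (3 h S over FN -0.84 ± 0.20, adjusted p = 0.119). Without the FN array of experiment 1 these differences were -0.20 in -S and -0.53 in 3 h S, not called. Without the other FN array they were -0.82 (adjusted p = 0.0067) and -1.15 (0.0016). Its samples did not overlap between -S and FN, but experiment 2 alone gave a ratio of 0.893. *GSTU26* was lower in -S within each experiment, with ratios of 0.575 and 0.871. It had 238.2 and 433.6 in -S, against 414.4 and 497.6 in FN, so that the groups overlapped (-0.48 ± 0.18, adjusted p = 0.203). That value was -0.27 without the FN array of experiment 1 (adjusted p = 0.59) and -0.68 without the other (0.024). After resupply *GSTU26* had 217.1 and 379.2 in 30 min S and 336.3 and 455.3 in 3 h S, and the 3 h S signals lay between those of -S and FN within each experiment. *GSTU28* had values of 54.2 and 88.4 in -S, against 55.4 and 100.0 in FN, and its difference of -0.09 had a 95% interval of -0.52 to 0.35. Its resupply signals were 43.9 and 115.7 in 30 min S and 70.7 and 106.0 in 3 h S, with experiment 2 above experiment 1 in every condition.

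The differences of the phi members had unlike signs, with -S over FN ratios of 1.34 and 1.51 for *GSTF4* and of 0.707 and 0.755 for *ATGSTF13*. *GSTF4* had 36.1 and 36.4 in -S, against 27.0 and 24.1 in FN (difference 0.33 ± 0.15, adjusted p = 0.261), and 55.0 and 38.3 in 30 min S and 36.8 and 34.3 in 3 h S. It was the only member with both 30 min S samples above both -S samples. *ATGSTF13* had 29.9 and 40.3 in -S, against 42.3 and 53.4 in FN (-0.32 ± 0.13, adjusted p = 0.218). It had 28.5 and 40.2 in 30 min S and 22.0 and 31.3 in 3 h S, and both 3 h S samples lay below both FN samples (-0.59 ± 0.13, adjusted p = 0.107, the largest difference among phi members). Without the FN array of experiment 2 it was -0.62 and called (adjusted p = 0.021). *GSTL3* of the lambda class had 403.3 and 410.6 in -S, against 321.5 and 413.3 in FN. Its groups overlapped, and the difference was 0.15 (95% interval -0.33 to 0.63), which turned to -0.10 without the FN array of experiment 1 and was 0.40 without the other, neither called. In 30 min S *GSTL3* had 560.4 and 398.1 and in 3 h S 373.9 and 376.5, and its largest difference was -0.32 ± 0.20 in 3 h S over 30 min S (adjusted p = 0.524).

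*GSTU21* and *GSTU15* were not tested. *GSTU21* had signals of 8.2 and 4.2 in -S, against 0.4 and 0.9 in FN, and 0.9 to 1.3 after resupply. *GSTU15* lay between 0.9 and 8.9 over the 8 arrays. All of these are under the floors, so that no fold is given.

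**Figure D3:**
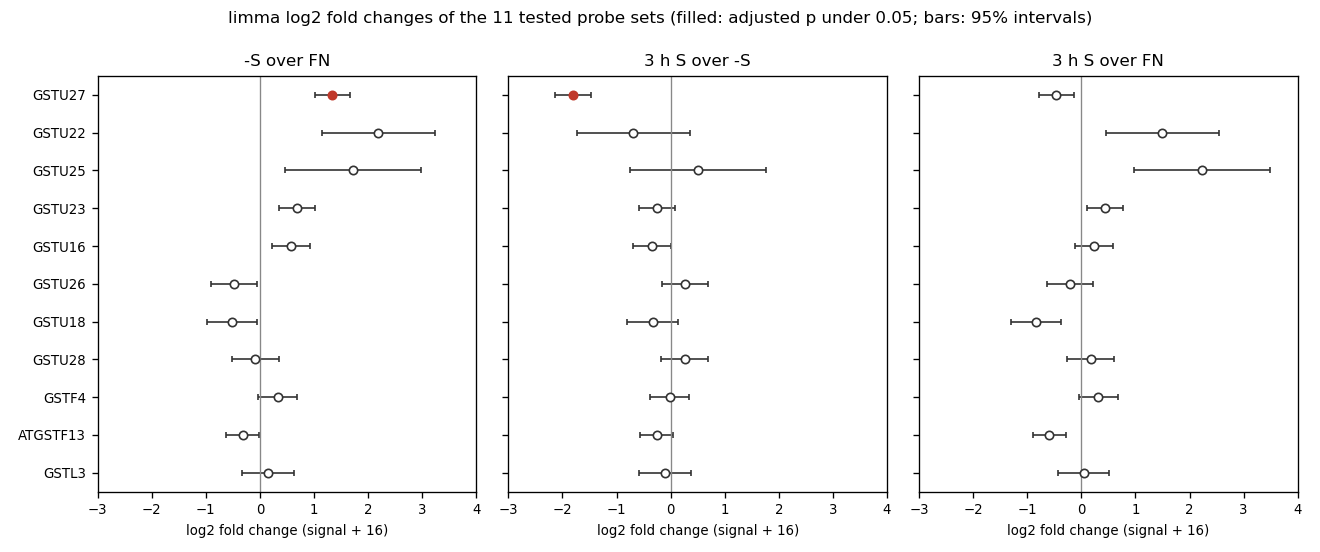
limma log2 fold changes (signal + 16) of the 11 tested members for -S over FN, 3 h S over -S and 3 h S over FN; points are fitted differences, bars 95% intervals, and filled points have an adjusted p under 0.05. The filled points are *GSTU27* in -S over FN (1.34) and in 3 h S over -S (-1.80).

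Among the comparisons after resupply, 30 min S over -S called 0 of 11 members, beside 0.00583% of all tested probe sets (1 probe set in all), and 1 member had an unadjusted p under 0.05. The differences ran from -0.50 to 0.25, with a median of -0.02 against -0.01 over all tested. No overlap was seen for 1 member higher and 2 lower in 30 min S, beside 13.0% and 13.5% of all tested. In 3 h S over -S, 0 members were called higher and 1 lower, beside 1.06% of all tested called either way, and the median was -0.25 against -0.03. Without overlap 0 members were higher and 4 lower in 3 h S (*GSTU27*, *GSTU23*, *GSTU16* and *GSTL3*), beside 18.0% and 20.3% of all tested. In 3 h S over 30 min S, 0 members were called higher and 1 lower, beside 0.548%, with a median of -0.24 against -0.02. Here 0 members were higher and 5 lower without overlap, beside 20.1% and 21.6%.

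In 3 h S over FN, 0 of 11 members were called, beside 0.56% of all tested probe sets. Without the FN array of experiment 2, the outlying FN array of experiment 1 was again the only control. Differences were then larger in size than without the FN array of experiment 1 for every tested member but *GSTU28*. The differences of 3 h S over FN ran from -0.84 to 2.23, with a median of 0.18 against 0.04. An unadjusted p under 0.05 was reached by 6 of 11 members, beside 18.6% of all tested. Both 3 h S samples were above both FN samples for 5 members (*GSTU22*, *GSTU25*, *GSTU23*, *GSTU16* and *GSTF4*) and below them for 3 (*GSTU27*, *GSTU18* and *ATGSTF13*), beside 22.3% and 18.0% of all tested.

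Several members sit beside each other on chromosome 1 in the TAIR10.1 annotation used for names. *GSTU22* and *GSTU23*, within 3 genes of each other, were both higher in -S than in FN in both experiments. Their ratios were 14.2 and 2.9 for *GSTU22* and 2.17 and 1.65 for *GSTU23*. Other neighbours were less alike. *GSTU20*, known for its link to glucosinolate synthesis, stands within 3 genes of *GSTU21*, *GSTU22* and *GSTU23*. Its signals were 53.4 and 63.5 in -S, against 364.3 and 363.6 in FN, and 369.6 and 510.9 in 3 h S. The log2 ratio of -S over FN was larger for *GSTU22* than for *GSTU20* by 5.68 in experiment 1 and by 3.41 in experiment 2. *GSTU25* and *GSTU26* are likewise neighbours, and the log2 ratio of *GSTU25* was larger by 3.67 and by 0.72. Near-identical family members could share probes, and cross-hybridisation was not tested.

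**Figure D4:**
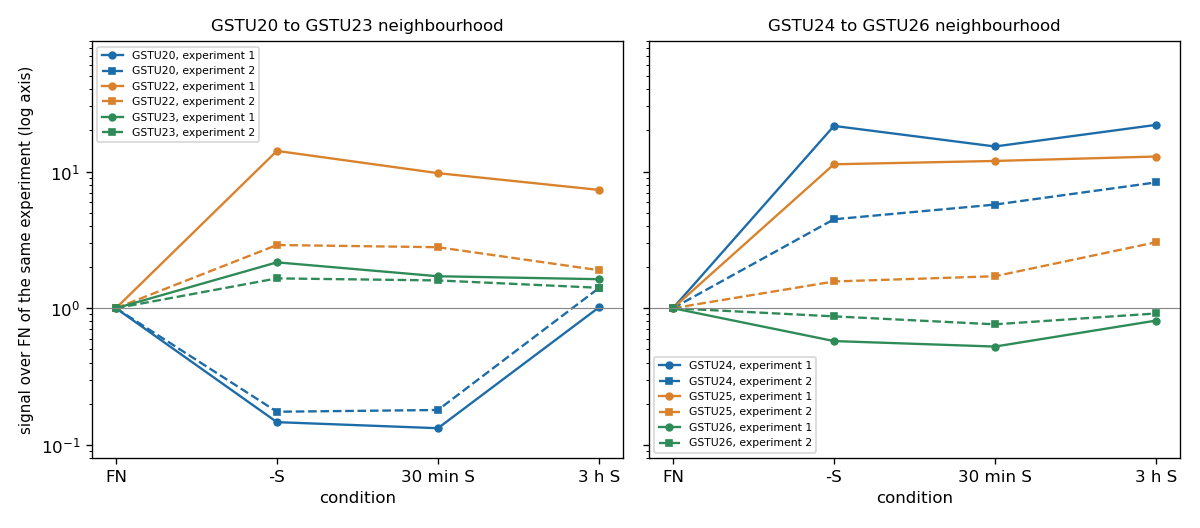
Signal over FN of the same experiment (log axis, signals under the floor raised to it) in FN, -S, 30 min S and 3 h S, for *GSTU20*, *GSTU22* and *GSTU23* (left) and *GSTU24*, *GSTU25* and *GSTU26* (right), with experiment 1 solid and experiment 2 dashed. *GSTU22* and *GSTU23* lie above 1 where *GSTU20* lies below it in -S, and *GSTU24* (named through a list chosen for a rise in experiment 1) and *GSTU25* lie above *GSTU26*.

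A further 10 GST and DHAR probe sets without a gene in the annotation were named through a list of the study. The lines held of that list all had an -S over FN ratio of at least 2.67 in experiment 1, so that these genes were picked for a rise there and are no members. Experiment 2 did not enter the choice. In it, the -S signal of 8 of the 10 reached the floor, and 6 of these were more than 2-fold higher in -S, beside 25.4% of 854 such lines. *DHAR2*, the cytosolic dehydroascorbate reductase, had 845.0 in -S, against 227.7 in FN, in experiment 2 (ratio 3.71). *GSTF12*, which carries anthocyanins towards the vacuole, had 68.9 in -S, against 19.4 in FN (3.55). *GSTU24* had 107.4 in -S, against 24.0 in FN (4.48), and *GSTU1* 148.0 against 37.8 (3.92). *GSTU4* and *GSTU10* had ratios of 1.06 and 0.972 in experiment 2. In 3 h S over 30 min S, 0 of the 8 tested were called, beside 0.548% of all tested probe sets. The differences ran from -1.23 (*GSTL1*) to 0.50 (*GSTU24*). These arrays were not used in the choice, but a choice for high -S signals can favour a fall in this comparison.

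The other genes of glutathione use gave few annotated probe sets. Of the lists of glutathione synthesis, peroxidases, breakdown, phytochelatin synthases, conjugate and thiol transporters and other GST-fold genes, 0 members had a probe set with a single annotated gene. The lists of glutathione reduction (*GR*, *GR1*), ascorbate partners (*ATMDAR2*, *SAPX*, *TAPX*) and xenobiotic response (*UGT73B5*) had 6, and 0 of these were called in any of the 5 comparisons, whose shares over all tested probe sets were at most 1.42%. A further 11 probe sets of these lists were named only through the study's list and so chosen for a rise in experiment 1. The arrays of 3 h S and 30 min S did not enter the choice, but those of 30 min S were close to -S (r = 0.982 and 0.993 within the experiments). A choice for high -S signals can thus favour a fall from 30 min S to 3 h S. The share over all tested probe sets is no fair measure for these genes. In 3 h S over 30 min S, 2 of the 11 were called, where 0.548% of all tested were. Both code for glutathione-degrading cyclotransferases of the breakdown list, with -3.49 ± 0.15 for AT5G26220 (adjusted p = 0.001) and -1.40 ± 0.19 for AT4G31290 (adjusted p = 0.037). The cytosolic glutathione reductase *GR1* had 602.3 and 479.6 in -S, against 412.5 and 454.6 in FN (difference 0.30 ± 0.16, adjusted p = 0.318). *SAPX*, the stromal ascorbate peroxidase, had the largest difference of the 6 over the 5 comparisons, with 489.6 and 338.8 in 3 h S, against 169.8 and 200.7 in FN (1.08 ± 0.19, adjusted p = 0.069). Over the 6 probe sets the median was 0.19 in -S over FN (range -0.70 to 0.71), against 0.05 over all tested. In 3 h S over FN it was 0.43 (range -0.78 to 1.08), against 0.04.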

How the data were processed

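RNA of whole seedlings was hybridised to 8 ATH1 arrays, and the authors deposited MAS 5.0 signals, the unit used here, as linear intensity per probe set (a 2% trimmed mean of 99.4 on each array shows that they had been scaled). The scaling target is not given in the sources used here. Groups were taken from the sample titles. The floor of an array was the signal at the absent share of its detection calls in the study's supplement.

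Gene names came from the platform annotation, updated to RefSeq symbols (13513 with 1 gene, 503 with several, 8730 with none), and a few more through the study's supplementary list. The members and gene lists were chosen with earlier results of these data known. Values in every sample are given for members called, for the largest difference of each class and for the 3 members with the highest mean signal, and were added for the rest.

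limma 3.58.1 (R 4.3.3) was fitted to log2(signal + 16), with condition terms and with the experiment as a replicate block, over 17138 probe sets that reached the floor on 2 or more arrays (5608 were left out). Residual and prior degrees of freedom were 3 and 4, and 95% intervals use their sum. The 5 comparisons were adjusted by the Benjamini-Hochberg method over all tested probe sets, with a limit of 0.05. The block was kept because the study forms ratios within an experiment. As a check, the differences between experiments correlated over probe sets with r = 0.31, 0.08 and 0.22 between FN and -S, 30 min S and 3 h S, and with 0.60 to 0.71 among the other conditions. The script was tested on simulated data. Alternatives were no offset, no filter, no block, quantile normalization, median centring, the compared conditions alone, an intensity trend, the methods' test (heteroscedastic and two-sided), the fold rule of the study and each array left out in turn. The number of arrays limits the precision. Python 3.11.15 (pandas 2.3.3, scipy 1.17.1, numpy 2.4.6, matplotlib 3.10.9) made the tables and figures. Sequences were not analysed here.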

Additional observations from a re-analysis of the deposited data

Results flagged for a closer look

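No group had enough arrays to look for single samples far from the rest of their group. Over all arrays, the FN array of experiment 1 stood apart by its correlations, as given above. The change of *GSTU27* over -S differed between the times after resupply, by -1.29 on the log2 scale (3 h minus 30 min, limma, SE 0.14, adjusted p = 0.016), lower at 3 h in both experiments. *GSTU26* was lower than -S at 30 min and higher than -S at 3 h in both experiments (signals of 217.1 and 379.2 in 30 min S and 336.3 and 455.3 in 3 h S, against 238.2 and 433.6 in -S). This difference of 0.42 ± 0.18 was not called (adjusted p = 0.349).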

How the results depend on the processing

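The members called numbered 1 in -S over FN, 1 in 3 h S over -S and 1 in 3 h S over 30 min S, and 0 in the other comparisons. No offset, no filter, quantile normalization, median centring and an intensity trend left all 5 counts as they were. Without the replicate block, -S over FN and 3 h S over 30 min S called 0 members. With the compared conditions alone, -S over FN called 0 and 3 h S over -S called 2 (*GSTU27* and *GSTU22*), where 1067 of all tested probe sets were called, against 182 with all conditions. The methods' test called 0 members and 0 of all tested probe sets in every comparison, so that it could not tell members apart by calls. Its unadjusted p was under 0.05 for 2 members in 3 h S over -S, 0 in 30 min S over -S and 1 in each other comparison. The fold rule gave 2 members in -S over FN and 1 (*GSTU25*) in 3 h S over FN. *GSTU27* also met it, as lower, in 3 h S over -S and in 3 h S over 30 min S. With each array left out in turn, the counts ran from 0 to 7 in -S over FN, 0 to 2 in 3 h S over -S, 0 to 1 in 3 h S over 30 min S and 0 to 6 in 3 h S over FN. The counts of 7 and 6 came without the FN array of experiment 2, where 4860 and 4639 of all tested probe sets were called, against 243 and 96 with all arrays. Over all probe sets -S over FN called 111 with no filter, 119 without the block, 36 with the conditions alone and 0 by the methods' test. With a single array left for a condition, that array is taken to vary like those of the other conditions. Without the FN array of experiment 2, the control left was the FN array of experiment 1, which stood apart. No call turned its direction in 880 single values over 16 alternatives, and 22 values that were not called changed sign. The cause of these shifts was not tested. *GSTU21* and *GSTU15* were limited by signals under the floor.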
